A study of Mus musculus with 2 samples.

Results

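The splicing machinery of the cell was followed here through 75 genes that an expression array names as SR proteins, heterogeneous nuclear ribonucleoproteins (hnRNPs), small nuclear ribonucleoprotein (snRNP) proteins, subunits of the U2 factors, or Prpf pre-mRNA processing factors. They were chosen by name alone, out of 28045 gene names, and are read by 155 of the 41084 usable probes, each a DNA strand of 60 bases. The SR class, named Sfrs on this array, has 19 genes and 43 probes. The hnRNP class has 20 genes and 46 probes, the snRNP class 12 genes and 21 probes, the U2 factors 11 genes and 18 probes, and the Prpf class 13 genes and 27 probes. Both samples were NIH3T3 cells, an established line of mouse embryonic fibroblasts, kept as stable lines under G418, which only cells with the plasmid's resistance gene survive. One line carries the expression plasmid pcDNA3.1 with MARVELD1, which encodes a membrane protein of the MARVEL domain family, and the other carries the empty pcDNA3.1 plasmid. Whether each line grew from 1 clone is not given in the sources used here. With 1 array per line, nothing below has a replicate, a p-value or an error between groups, and every difference is between these 2 arrays.

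Splicing removes introns from a transcript and joins its exons. Small nuclear RNAs, held in rings of Sm proteins, recognise the ends of the intron and the branch point, and the Prpf proteins build and activate the catalytic spliceosome from these particles. U2AF reads the 3′ end of the intron and brings in the U2 particle, whose SF3A and SF3B parts clamp the branch point. SR proteins bind exons and mostly favour their inclusion, hnRNPs often oppose it, and many genes of both classes carry alternative exons or retained introns that tune the amount of their own mRNA.

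The share of spots well above background was 69.0% on the array labelled MARVELD1 and 68.7% on the empty vector array. The 75th percentiles of intensity, used to scale the arrays, were 703.3 and 768.1 in the same order. After scaling, the median log2 difference of the 26802 probes measured on both arrays was 0.15, with quartiles of -0.19 and 0.45. Scaling to the array median instead put it at 0.04, so differences of a class are given relative to all probes as well. The targeted gene, Marveld1, read 6293 on the array labelled MARVELD1 and 8725 on the empty vector array by one probe, a log2 difference of -0.34. By the other it read 126.4 and 184.4, at -0.42, so neither probe was higher under that label. Whether these probes read the plasmid's insert is not known, and each direction below rests on the label. All 8 fibroblast markers examined were well above background on both arrays, at 1683 to 233931 on the array labelled MARVELD1 and 2680 to 214601 on the empty vector array, and 6 of the 8 had a negative difference (median -0.56, lowest -2.10, highest 0.25). Of the 4 epithelial markers, Epcam and Cdh1 stayed near background on both arrays, Krt8 read 211.2 on the array labelled MARVELD1 and 218.8 on the empty vector array, and Krt18 read 78.7 and 19.4, well above background under the MARVELD1 label only. Over all 16 markers of other cell types, 8 were well above background on both arrays and 4 on neither. The part of cell makeup in the results below was not tested. A difference between single spots of a probe had a technical SD of 0.17 above an intensity of 2000, 0.32 between 200 and 2000 and 0.60 below 200, from probes printed 10 times. Every splicing gene probe is 1 spot.

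Set against probes of like signal, the splicing genes lay near the rest of the array in their median. Against all detected probes, not matched for signal, a larger share of their probes was 2-fold or more lower. With each gene represented by its brightest probe, 57 of the 73 genes measured on both arrays had a positive difference and 16 a negative one. The median was 0.37, against 0.18 for all genes by their brightest probe, of which 65.7% were positive. Bright probes in general read higher on the array labelled MARVELD1, with a median of 0.33 in the brightest of 10 bins, and relative to probes of like signal the 137 member probes measured on both arrays had a median of 0.02. Of the 74 genes detected, 4 were 2-fold or more higher, where 6.41% of all genes were, and 5 were 2-fold or more lower, where 3.45% were. By probe, 9 of 143 were 2-fold or more higher (6.29%, against 6.13% of all probes) and 14 were lower (9.79%, against 4.7% of all probes). Scaling to the array median turned these into 5 higher and 15 lower among probes, where 4.75% and 5.81% of all probes were, and into 2 higher and 5 lower among genes, where 4.89% and 4.26% of all genes were. Of the 9 higher probes 1, of Sfrs8, passed 2-fold under each of the 5 other scalings tried, and of the 12 lower probes measured on both arrays 9 did. By brightest probe, 15 of the 57 positive genes turned negative under 1 or more of these scalings, the highest of them being Hnrpk at 0.40. The single gene not detected was Hnrpul2, whose only probe stayed near background on both arrays.

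**Figure D1:**
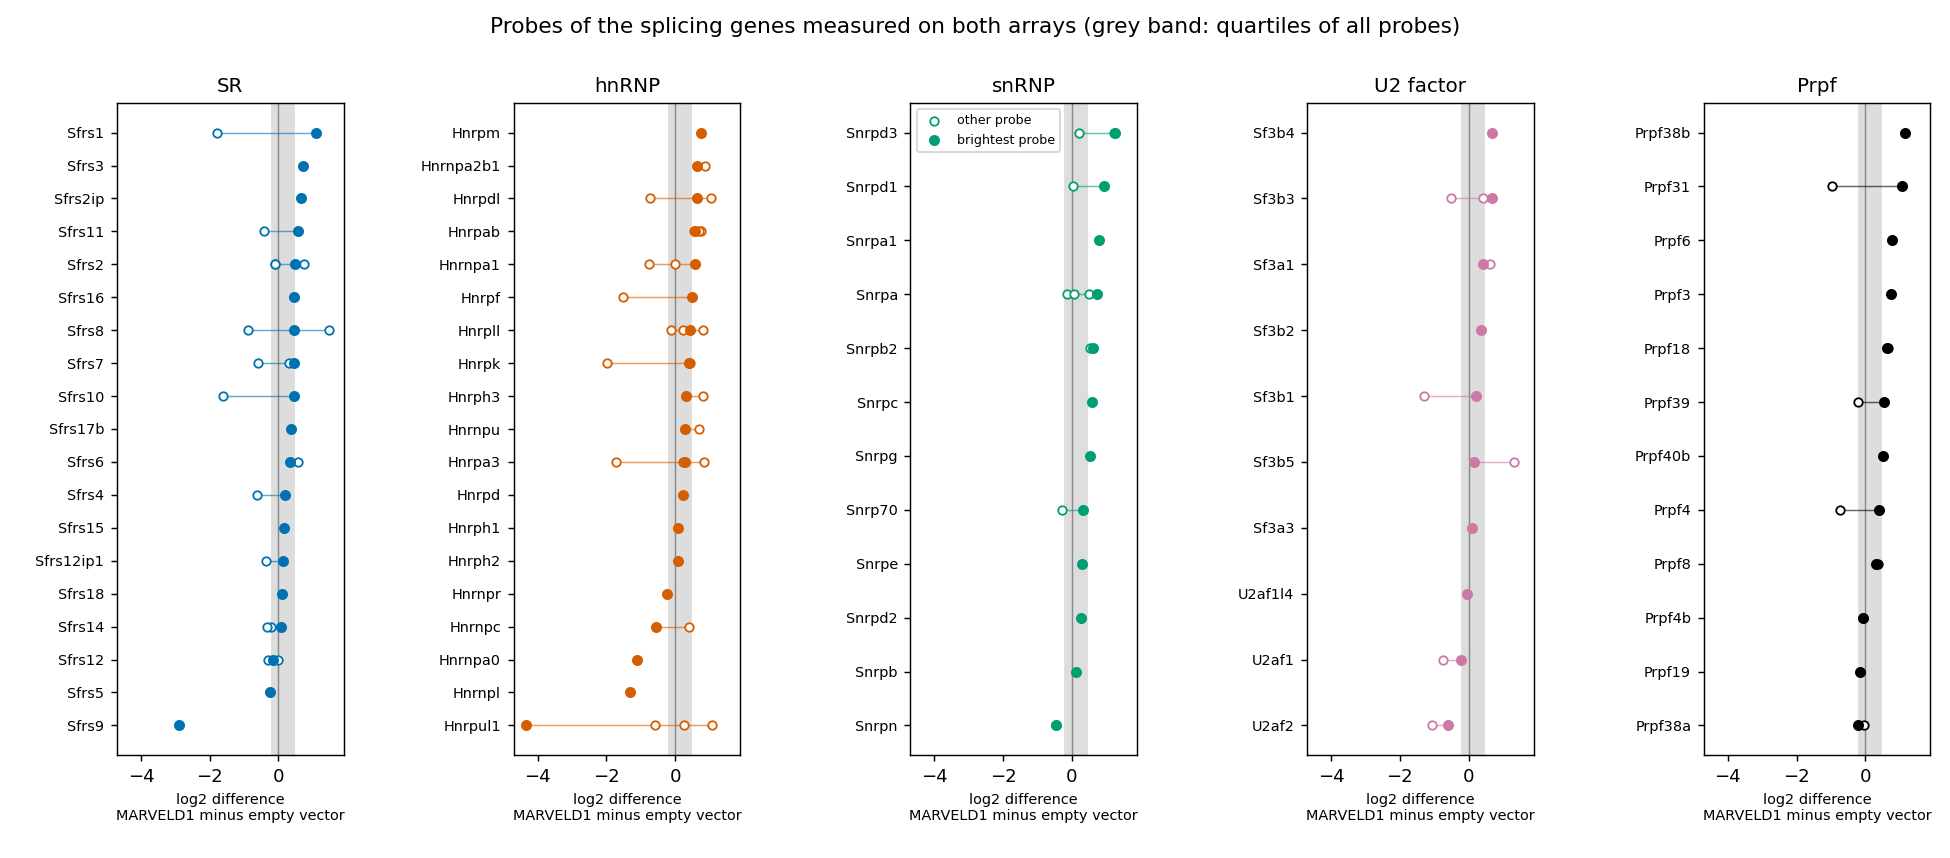
Log2 difference, MARVELD1 minus empty vector, of probes measured on both arrays (points), by gene (rows) and class (panels). Filled points are the brightest probe of a gene, lines join its probes, and the grey band spans the quartiles of all probes, -0.19 to 0.45; 32 filled points lie within the band and 29 to its right, while open points of Sfrs1, Sfrs10, Hnrpk, Hnrpf and Hnrpa3 lie far to its left.

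By brightest probe, 16 of 19 SR genes were positive (84.2%, against 65.7% of all genes), with a median of 0.37 against 0.18. The class follows the name Sfrs, and only 8 of its genes encode classical SR proteins (Srsf1 to 7 and 9). Of these 8, 6 were positive, with a median of 0.40. Of the 11 other genes named Sfrs, 10 were positive, with a median of 0.37. Over all 36 probes measured on both arrays the SR median was 0.12, just under the 0.15 of all probes. Of the 19 genes, 12 lay above the median of all genes by their brightest probe. The largest SR difference was that of Sfrs9 (now Srsf9), an SR protein that binds exonic enhancers. Its only probe (A_51_P336691, mm9 chr5:115782747-115782806, plus strand) read 537 on the array labelled MARVELD1 and 4390 on the empty vector array. That is a log2 difference of -2.90, or 7.49-fold lower. Its readings lie on either side of an intensity of 2000, where the technical SD of single spots was 0.32 below and 0.17 above. Nearby genes did not share it: Gatc, whose nearest probe lies 905 bases away, gave -0.09, and Triap1 gave 0.73. No second probe of Sfrs9 is there to compare with, and the first 30 bases of the one that carries the result are shown. Sequences here are the probe strands as the scanner files give them, 5′ to 3′, in lower case, with capitals only where said.

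Sfrs9 A_51_P336691, first 30 bases: tctcttcagttttttagatgagctgggcta

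Sfrs1 (now Srsf1), the founding SR protein, read in opposite directions by its probes. The one nearer the 3′ end (A_51_P485899, mm9 chr11:87864550-87864609, plus strand) read 14424 on the array labelled MARVELD1 and 7440 on the empty vector array, a log2 difference of 1.08, which fell short of 2-fold under every other scaling (0.76 to 0.98). The other (A_52_P525674, chr11:87862647-87862706), 1903 bases upstream, read 76.6 and 290.3, a log2 difference of -1.79. A span of 2.88 thus separates probes under 2 kb apart in 1 gene, and neither direction can be given for the gene as a whole. Both sites are shown, the upstream one in full and the other by its first 30 bases.

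Sfrs1 A_52_P525674, upstream site, 60 bases: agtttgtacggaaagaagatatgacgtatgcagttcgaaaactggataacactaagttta
Sfrs1 A_51_P485899, downstream site, first 30 bases: ataggatagggaggatgaattaccaggatt

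Sfrs10, the gene now called Tra2b, whose protein binds purine-rich exonic enhancers, showed the same layout. Its 3′ probe read 5643 on the array labelled MARVELD1 and 4541 on the empty vector array (log2 difference 0.44). Its probe 12764 bases upstream read 54.7 and 184.8 (-1.63). Sfrs8, now Sfswap and named after a fly splicing regulator of its own transcript, had 3 measured probes that did not follow a single course. The 3′ one read 3944 and 3142 (0.46), the one 16851 bases upstream 168.3 and 340.4 (-0.89), and the one 68254 bases upstream 1305 and 510.7 (1.48). Only the middle of these was lower on the array labelled MARVELD1. Sfrs12 (Srek1), an SR-related protein, had 3 measured probes within -0.30 to 0.00. A further one, not well above background on the array labelled MARVELD1 (41.8 against 134.6), was at least 2.95-fold lower there.

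The remaining SR genes differed by less than 2-fold. Besides Sfrs1, the highest were Sfrs3 (Srsf3), a small SR protein that also acts in mRNA export, at 864.6 on the array labelled MARVELD1 and 572.3 on the empty vector array (0.72), and Sfrs2ip (Scaf11), at 10626 and 7365 (0.66). Sfrs5 (Srsf5) was among the lowest, at 692.3 and 891.5 (-0.24). In Sfrs7 (Srsf7) the probes disagreed: a pair sharing 20 bases gave 0.45 and 0.29, and another, 355 bases nearer the 3′ end, read 907.2 and 1492, at -0.59. Sfrs2 (Srsf2, also called SC35), with 4 measured probes, gave 0.49, 0.73, -0.10 and -0.11, the positive ones nearest the 3′ end. Sfrs6 (Srsf6) was the only SR gene with several measured probes that all pointed one way, at 0.34 and 0.58.

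Among hnRNP genes the brightest probes had a median of 0.30, against 0.18 for all genes, but -0.03 after loess on intensity, against 0.03. Past 2-fold, 3 of 19 genes were lower, where 3.45% of all genes were, and 0 were higher, where 6.41% were. With normexp background correction 2 were lower, where 2.31% of all genes were, Hnrnpa0 then being at -0.79. Hnrpul1 (Hnrnpul1), an hnRNP U relative that also binds DNA-damage factors, showed the largest difference of all 137 probes. Its most 3′ probe (A_51_P156363, chr7:26506537-26506596, minus strand) read 693.4 on the array labelled MARVELD1 and 15331 on the empty vector array, a log2 difference of -4.34, or 20.2-fold lower. The other measured probes of the gene did not share it: the one 4645 bases upstream (chr7:26511182-26511761) read 336.6 and 176.0 (1.06), the one 15170 bases upstream 230.5 and 210.7 (0.26), and the one 18070 bases upstream 852.2 and 1395 (-0.58). Neighbouring genes gave 0.12 (Ccdc97), 0.24 (Tgfb1) and 0.28 (Axl). The difference therefore belongs to 1 spot per array at 1 site of the gene, and that site is shown with the next one upstream, each by its first 30 bases.

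Hnrpul1 A_51_P156363, most 3′ site: gttccccgtaactttgcacacaagcgtctg
Hnrpul1 A_52_P243307, next site upstream: aatgaaagccaacttcactttgcctgatgt

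Hnrnpl, which binds CA-rich RNA and regulates alternative exons, read 3069 on the array labelled MARVELD1 and 8378 on the empty vector array by its only probe (chr7:29607045-29607104), 2.50-fold lower. Hnrnpa0, of the hnRNP A/B family, read 100.8 and 236.6 (-1.10), in an intensity range where single spots carry an SD of up to 0.60. Its second probe stayed near background on both arrays. Both genes thus rest on 1 measured site.

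In 5 of the 6 hnRNP genes whose probes spanned over 1, the lowest probe lay upstream of a probe that read somewhat higher on the array labelled MARVELD1. Hnrpk (Hnrnpk), a KH-domain protein that binds C-rich RNA, had its brightest probe (chr13:58493364-58493423, minus strand) at 94648 on the array labelled MARVELD1 and 78104 on the empty vector array (0.40, but -0.02 with normexp background correction). A second downstream probe gave 0.44. The upstream one (chr13:58501255-58501314) read 100.2 and 429.1, a log2 difference of -1.97, and lies 8557 bases upstream of the most 3′ probe. In Hnrpf (Hnrnpf), a protein that binds runs of G, the downstream probe (chr6:117875507-117875566, plus strand) read 73003 and 56364 (0.50). The upstream probe (chr6:117873933-117873992), 1574 bases away, read 215.5 and 670.6 (-1.51). Hnrpa3 (Hnrnpa3), of the A/B family, had probes at 0.28 (the brightest, chr2:75503607-75503666, plus strand), 0.24 and 0.84, the brightest turning to -0.11 after loess, and an upstream probe (chr2:75500015-75500074) at 58.5 and 211.3 (-1.73). In Hnrnpa1, which silences exons and competes with SR proteins, the brightest probe read 67655 and 49744 (0.57), another gave 0.00, and the upstream one read 49.1 and 90.8 (-0.76). The upstream sites of Hnrpk, Hnrpf and Hnrpa3 are shown in full, each with the first 30 bases of the brightest site of its gene, so that the places compared can be found.

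Hnrpk A_52_P401423, upstream: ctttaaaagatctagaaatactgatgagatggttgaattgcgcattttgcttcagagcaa
Hnrpk A_51_P376358, brightest: ggaggaaagtaatagtccacatgtccctgg
Hnrpf A_52_P141161, upstream: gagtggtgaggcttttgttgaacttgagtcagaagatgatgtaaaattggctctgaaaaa
Hnrpf A_51_P305997, brightest: aggaattggtgaggccttgacttaaagctt
Hnrpa3 A_51_P443482, upstream: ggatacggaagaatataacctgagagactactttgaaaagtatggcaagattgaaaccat
Hnrpa3 A_51_P272617, brightest: aggaaacccttcttgttcaggactgtcata

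Hnrpdl (Hnrnpdl), an AU-rich element binder related to hnRNP D, gave 1.04 by its most 3′ probe (2806 on the array labelled MARVELD1 and 1492 on the empty vector array, short of 2-fold under every other scaling), 0.63 by the next, which is the brightest, and -0.72 by the most upstream (554.6 and 998.1). The highest hnRNP genes by brightest probe, beside Hnrpdl, were Hnrpm (Hnrnpm), at 41440 and 26970 (0.75), and Hnrnpa2b1, an RNA-sorting hnRNP, at 17041 and 11878 (0.65) with a second probe at 0.86. Hnrpab (Hnrnpab) was the steadiest hnRNP gene: its 4 probes, spread over 4182 bases, gave 0.54 to 0.74, all higher on the array labelled MARVELD1.

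**Figure D2:**
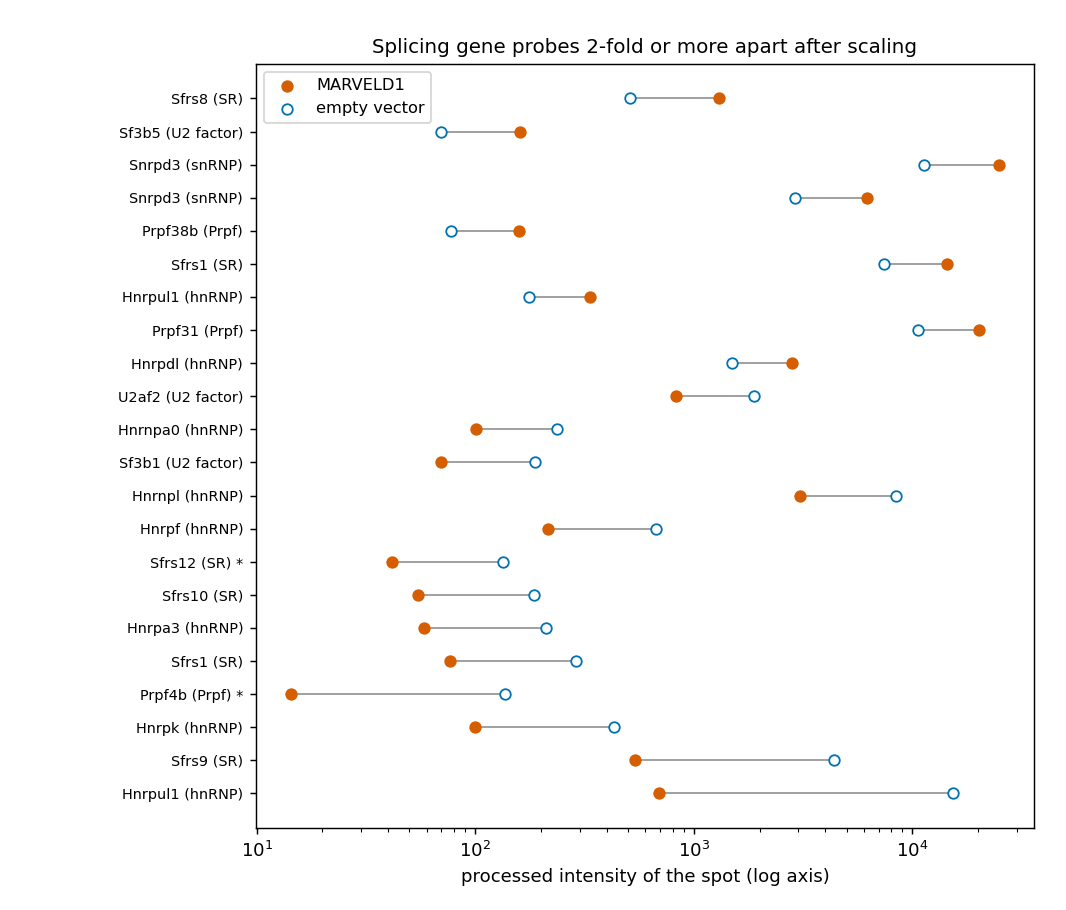
Processed intensity (log axis) of splicing gene probes that differ 2-fold or more after scaling, on the array labelled MARVELD1 (filled) and the empty vector array (open); rows are probes in order of their difference, and an asterisk marks a probe not well above background on the array labelled MARVELD1. Among the lower probes, the Hnrpul1 probe reads 693.4 against 15331 and the Sfrs9 probe 537 against 4390.

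By brightest probe 11 of 12 snRNP genes had a positive difference (91.7%, against 65.7% of all genes). Above the median of all genes lay 10 of 12, and the class median was 0.56, against 0.18 for all genes. This lead shrank with the scaling. Positive were 10 of 12 with quantile normalization (83.3%, against 56.1% of all genes) and 7 of 12 after loess on intensity (58.3%, against 52.6%). The class medians were then 0.27 and 0.21, against 0.06 and 0.03 for all genes. After loess the positive share of the snRNP genes lay under those of the SR genes (73.7%) and the Prpf genes (69.2%). Relative to probes of like signal, the 21 snRNP probes had a median of 0.19.

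Snrpd3, one of the Sm proteins that ring the spliceosomal RNAs, was the snRNP gene furthest from 0. Its brightest probe (A_52_P523179, chr10:74998027-74998086, plus strand) read 24789 on the array labelled MARVELD1 and 11288 on the empty vector array, a log2 difference of 1.26. A second (A_51_P176681, chr10:74995039-74995098) read 6197 and 2904, at 1.22, and the most 3′ one 462.4 and 433.9, at 0.22. Both bright sites, 2988 bases apart, thus gave nearly the same value, although they came just short of 2-fold after loess, at 0.96 and 0.99. Sequence of these sites is shown because they carry the only differences past 2-fold among snRNP genes.

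Snrpd3 A_51_P176681, 60 bases: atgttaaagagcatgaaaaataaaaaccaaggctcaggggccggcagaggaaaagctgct
Snrpd3 A_52_P523179, first 30 bases: gtgggatgggacgtgggaacatcttccaga

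The next highest were Snrpd1, another Sm protein, at 10606 on the array labelled MARVELD1 and 6022 on the empty vector array (0.94), and Snrpa1, which belongs to the U2 particle, at 3485 and 2206 (0.79). A second Snrpd1 probe, at 61.9 and 65.3, gave 0.05. At the other end of the class, Snrpb, the Sm protein B gene, read 7114 and 7195 (0.11) and Snrpd2 read 10884 and 9951 (0.26). Both turned negative after loess, at -0.15 and -0.03.

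Snrpn alone was negative among snRNP genes by brightest probe. It is imprinted, expressed from the paternal copy, and encodes a close relative of the Snrpb product that is best known from brain. Its probes (chr7:67132330-67132389 and chr7:67132347-67132406, minus strand) read 102.8 and 85.8 on the array labelled MARVELD1 and 155.4 and 128.4 on the empty vector array, log2 differences of -0.47 and -0.45. By their coordinates they cover 43 bases in common, so they repeat 1 site rather than support each other from separate ones. Of the genes read nearby on the same strand, Snurf gave -0.27 and D7Ertd715e, further off, gave 0.54. Both Snrpn differences lie within the technical SD of 0.60 of such dim spots. The pair is printed with the longest run of identical bases, 31 of them, in capitals.

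Snrpn A_51_P168862: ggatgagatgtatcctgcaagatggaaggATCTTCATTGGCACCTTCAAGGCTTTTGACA
Snrpn A_52_P354390: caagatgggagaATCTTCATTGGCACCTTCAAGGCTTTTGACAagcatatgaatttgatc

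The U2 factor genes were split. Of 10 genes measured on both arrays by their brightest probe, 7 were positive (70.0%, against 65.7% of all genes) and 5 lay above the median of all genes. Past 2-fold there were 0 either way, where 6.41% of all genes were higher and 3.45% lower. With quantile normalization or loess 5 of 10 were positive, where 56.1% and 52.6% of all genes were. U2af2, the large subunit of U2AF that binds the polypyrimidine tract, was lower by both its probes, which lie 155 bases apart. The brighter read 1471 on the array labelled MARVELD1 and 2431 on the empty vector array (-0.60), and the other read 824.8 and 1889 (-1.07). Its partner U2af1, which reads the AG at the intron's end, was lower by both probes too, at 3316 and 4229 (-0.22) and at 612.7 and 1119 (-0.74). The related U2af1l4 read 649.6 and 725.8 (-0.03). All 5 probes of the U2AF genes were thus negative.

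The SF3 genes measured on both arrays were positive by brightest probe, as 65.7% of all genes were. Relative to probes of like signal they ran from -0.22 (Sf3a3) and -0.17 (Sf3b5) to 0.35 (Sf3b3) and 0.36 (Sf3b4). Both Sf3a3 and Sf3b5 turned negative with quantile normalization, loess and normexp. Sf3b4, Sf3b3 and Sf3a1 were highest by brightest probe, at 0.69 (19501 on the array labelled MARVELD1 and 13173 on the empty vector array), 0.69 (11582 and 7857) and 0.43 (11363 and 9240). The second Sf3a1 probe gave 0.62, whereas the probes of Sf3b3, which lies in the branch point clamp, spanned -0.50 to 0.69. Sf3b1, the subunit that holds the branch point itself, read 365.7 and 341.4 (0.23) at its 3′ probe. Its other probe, 26878 bases upstream, read 69.5 and 187.4 (-1.30). Sf3b5 had 0.16 by its brighter probe (-0.18 with normexp) and 1.33 by the other (160.1 and 69.6), but by its coordinates the second lies on the opposite strand. Sf3a2 was not well above background on the array labelled MARVELD1, at 41.1 against 64.7, and was at least 1.44-fold lower there.

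Prpf genes had a median of 0.51 by brightest probe, against 0.18 for all genes. Of 13 genes 9 were positive (69.2%, against 65.7% of all genes). Prpf31, a protein of the U4/U6 particle, read 20248 on the array labelled MARVELD1 and 10632 on the empty vector array by its 3′ probe (1.06, but 0.76 to 0.95 under the other scalings). Its probe 10299 bases upstream read 202.0 and 431.8 (-0.97). Prpf38b read 158.8 and 77.6 (1.16, but 0.65 with normexp), in the range where single spots carry an SD of 0.60, and its second probe stayed near background on both arrays. Prpf6, a bridge within the tri-snRNP, read 2302 and 1461 (0.78), and a second probe, not well above background on the empty vector array, was at least 1.95-fold higher on the array labelled MARVELD1.

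Prpf4, another U4/U6 protein, had its upstream probe lower as well, at 366.2 on the array labelled MARVELD1 and 665.7 on the empty vector array (-0.74), and its downstream probe at 8607 and 7152 (0.39). Prpf4b, a kinase of the spliceosome, gave -0.07 and -0.06 by its measured probes. A further one, 14.4 on the array labelled MARVELD1 and 136.9 on the empty vector array, was at least 3.71-fold lower. The ubiquitin ligase gene Prpf19 read 1180 and 1437 (-0.16), and Prpf38a 4251 and 5347 (-0.20). Prpf8, the core of the catalytic centre, was steady, with 10012 and 8750 (0.32) at one probe and 0.36 at another.

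As a description of these 2 arrays, probes of a gene agreed less in the splicing genes as a set than on the whole array. This did not hold in every class. Of 43 genes with several probes measured on both arrays, 17 had all probes on one side of 0 (39.5%), against 54.3% of 5529 such genes on the whole array. The probes spanned more than 1 on the log2 scale in 17 of the 43 (39.5%), against 20.1%. The SD between probes of a gene was 0.90, against 0.54. This SD leans on Hnrpul1, whose probes run from -4.34 to 1.06, and it was not recomputed without that gene. It was 1.15 in the hnRNP class, which holds Hnrpul1. In the classes without Hnrpul1 it was 0.82 (SR), 0.81 (Prpf), 0.64 (U2 factor) and 0.44 (snRNP), the last below that of the array. By class, the probes pointed one way in 1 of 11 SR genes, 4 of 12 hnRNP genes, 4 of 6 snRNP genes, 4 of 6 U2 factor genes and 4 of 8 Prpf genes. Some of these probes share bases, so they are not all separate sites. Where they do, they gave like values: the Prpf18 probes, which lie on the minus strand at chr2:4543307-4543366 and chr2:4543273-4543332 and share the 26 bases printed here in capitals, gave 0.67 and 0.64, those of Sfrs7 sharing 20 bases 0.45 and 0.29, and those of Snrpa sharing 20 bases 0.05 and -0.13.

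Prpf18 A_51_P148597 and A_52_P206881, shared bases: ACTCCTGGGATATGTAGGAAGATGAC

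**Figure D3:**
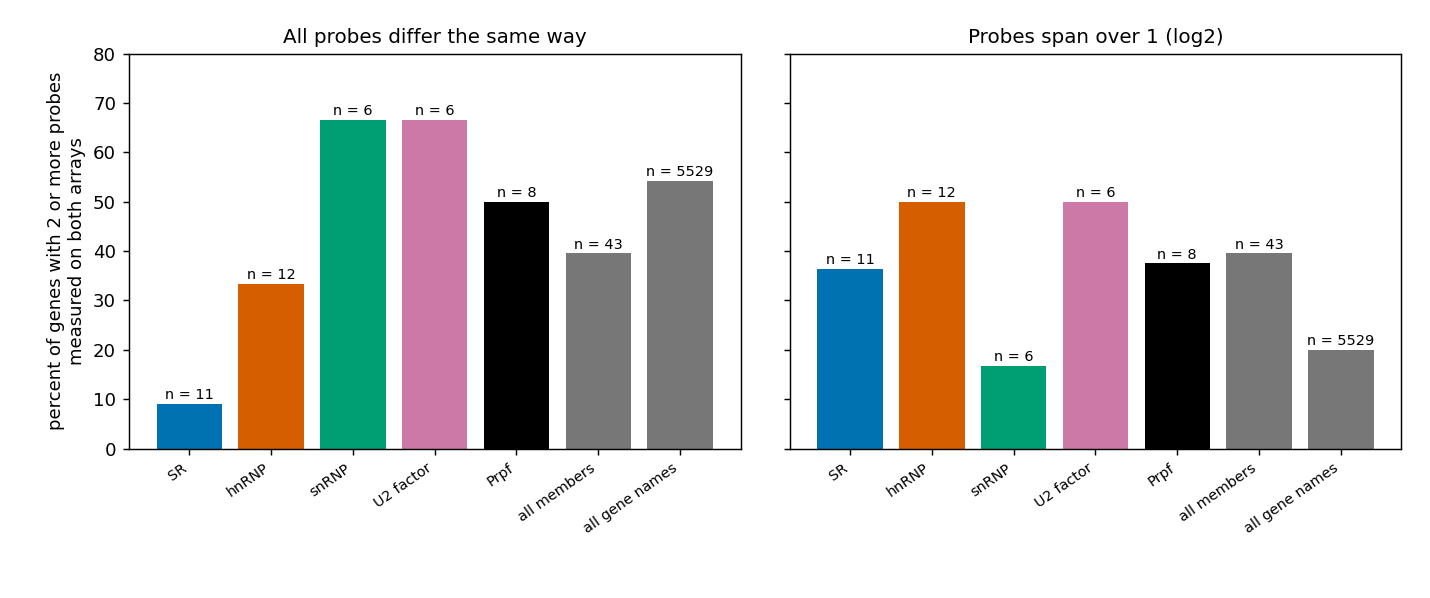
Percent of genes with several probes measured on both arrays whose probes all differ the same way (left) or span over 1 on the log2 scale (right), by class, for all members and for all gene names on the array, with the number of genes above each bar. SR genes stand at 9.09% on the left, all members at 39.5% and all gene names at 54.3%; on the right the members stand at 39.5% and all gene names at 20.1%.

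The disagreement had a direction along the gene. In 35 members with measured probes 500 bases or more apart, the most 5′ probe minus the most 3′ probe had a median of -0.52 on the log2 scale, and the 5′ probe was the lower one in 26 (74.3%). Over 4653 genes of the whole array the median was -0.28 and the 5′ probe was lower in 67.7%. Of the SR genes 9 of 10 had the lower 5′ probe, of the hnRNP genes 7 of 11, of the snRNP genes 2 of 4, of the U2 factors 4 of 4 and of the Prpf genes 4 of 6. The 19 member probes that lie 5 kb or more upstream of the most 3′ probe of their gene had a median difference of -0.50, against -0.01 for 2718 such probes on the array, and read a median intensity of 465.1 on the array labelled MARVELD1 and 510.7 on the empty vector array. Nearer the 3′ end the median of the members showed no such fall. It was 0.31 at 1 to 5 kb (0.03 on the array), 0.30 under 1 kb (0.08) and 0.41 for the most 3′ probes (0.24). Their lower quartile did fall, from 0.05 for the most 3′ probes to -0.19 under 1 kb and -0.27 at 1 to 5 kb. On the array it was -0.09, -0.32 and -0.35 in the same order. At 1 to 5 kb, median intensity on the array labelled MARVELD1 was 6191 for members and 411 for all such probes.

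Of the 14 member probes that were 2-fold or more lower, 9 were not the brightest of their gene. In 6 of these 9 the brightest probe was higher on the array labelled MARVELD1. Of the 9, 7 were measured on both arrays and lay upstream of the most 3′ measured probe. The others, of Prpf4b and Sfrs12, were well above background on the empty vector array only. By their coordinates they lie upstream too. These 9 were picked as lower and as not the brightest, so their being dimmer than the brightest probe follows from the choice. Upstream probes are also common among members: 42 measured probes were the most 3′ of their gene. Another 18 lay under 1 kb upstream, 26 at 1 to 5 kb and 19 at 5 kb or more. Lower 5′ probes occur all over the array. The part of RNA integrity, of labelling from the 3′ end, of dim signal or of transcript isoforms in this pattern was not tested.

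**Figure D4:**
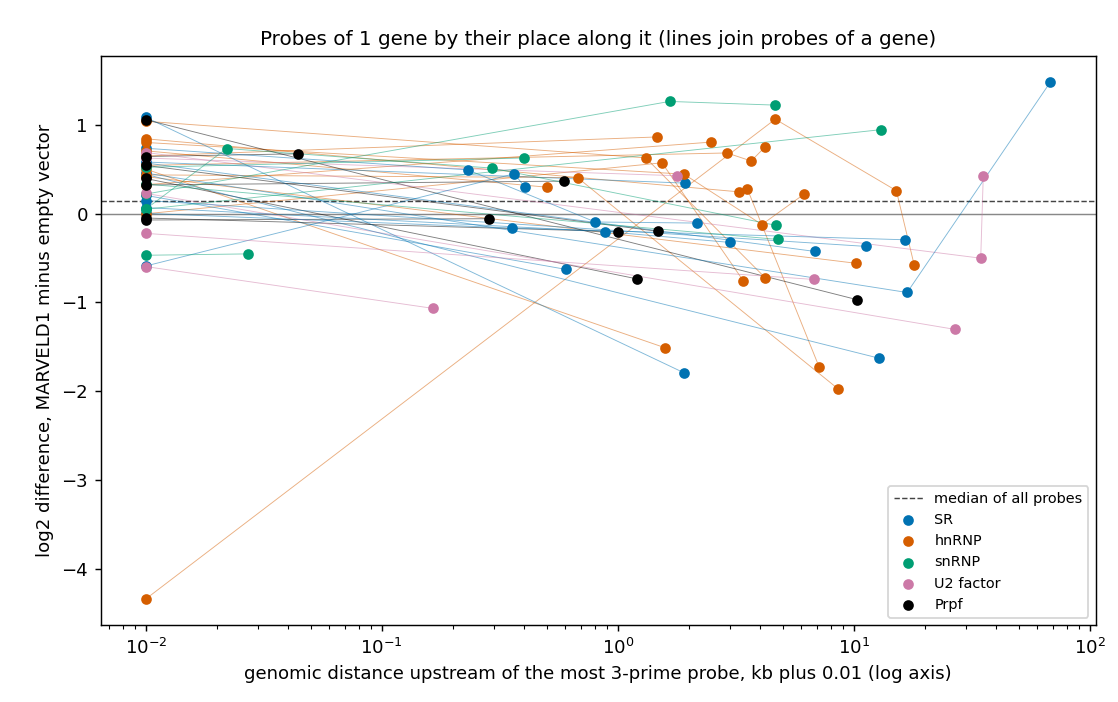
Log2 difference of member probes, MARVELD1 minus empty vector, by its genomic distance upstream of the most 3′ measured probe of the gene (log axis, kb plus 0.01); colours are classes, lines join probes of 1 gene and the dashed line is the median of all probes, 0.15. Most lines fall to the right, to -1.97 for Hnrpk, while that of Hnrpul1 climbs from -4.34.

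Probes whose coordinates span over 61 bases, as those across an exon junction do, were compared with the rest because the genes are splicing factors. The 18 such member probes had a median of -0.12, against 0.33 for the 119 others. On the whole array the medians were 0.04 for 3165 probes spanning over 61 bases and 0.16 for 23472 others. In both sets these probes had the lower median, and their place along the gene was not set apart from this.

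Splicing genes outside the name rule had few members past 2-fold. A list of 91 further genes, for SR kinases, other splicing regulators, branch point factors, tri-snRNP and catalytic proteins, LSm proteins and snRNP assembly, had 90 detected. Of these 0 were 2-fold or more higher (6.41% of all genes) and 4 were lower (3.45%), and 75 of the 89 measured on both arrays were positive, with a median of 0.39 against 0.18 for all genes. Lsm2, an LSm protein that binds the end of U6 RNA, read 593.9 on the array labelled MARVELD1 and 2013 on the empty vector array (-1.63), with its other probe at -1.48. Acin1, a protein of splicing-dependent complexes, read 2503 and 5860 (-1.10) by its brightest of 3 probes, of which the highest gave 0.19. Syf2, of the catalytic spliceosome, read 105.6 and 243.5 (-1.08), and Nova1, a neuronal splicing regulator, was not well above background on the array labelled MARVELD1 (29.8 against 77.3) and at least 2.09-fold lower.

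In RNA from whole cultures, fewer cells with a transcript and less transcript per cell cannot be told apart, and an array probe reads mRNA, not protein or splicing activity.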

How the data were processed

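Total RNA of both lines was labelled with Cy3 and hybridised to a 1-colour Agilent mouse array, per the labels. The deposited scanner files hold the fluorescence intensity of each spot, background-subtracted by Agilent Feature Extraction 9.5.3.1, per the file headers; the submitters' processing notes name the same program. Each array had 43379 non-control spots, none saturated (0), and 223 outlier spots on the array labelled MARVELD1 and 116 on the other were left out. The number of arrays limits the precision. The table of values the authors deposited for 26829 of these probes is the same intensity divided by 1 factor per array, 123.3 and 124.6, to within 1% for 99.8% and 99.7% of the probes, and served as an alternative. Coordinates are those of the files, on mm9. Exons and untranslated regions of that build were not used here.

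From these, the log2 intensity minus the array's 75th percentile was taken, in Python 3.11.15 with pandas 2.3.3. Differences are MARVELD1 minus empty vector. A probe counts as detected when 1 array or both read it well above background, and as measured when both did. Where only 1 array measured it, "at least N-fold" sets that array against the higher of the dim value and the lowest well-measured value. A gene takes its probe with the highest mean. All 75 genes were matched to current symbols in a RefSeq table of GRCm38.p6, used for names only (71 by accession, 1 by symbol, 3 by an older name). Position along a gene follows the strand of its brightest probe. "Like signal" is the median of all probes in the same bin of mean intensity, out of 10 bins. The counting was tested on simulated data. Alternatives used limma 3.58.1 in R 4.3.3 for quantile, loess and normexp (offset 50) values.

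Genes are named if a probe passes 2-fold, if they are among the 3 highest or lowest of their class, or if their probes span over 1. Sfrs2, Sfrs6, Hnrpab, Prpf8, Prpf18, Snrpa and Sf3a2 fall outside this rule and were chosen after their values were seen. The values of 1 gene are not reported here and are left out of the plots of single probes, while counts and medians include it. The members, the lists and the tests were chosen with earlier results of these data known.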

Additional observations from a re-analysis of the deposited data

How the results depend on the processing

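Counts of higher calls depended on the scaling, and counts of lower calls less so. Member probes 2-fold or more higher were 9, but 5 with scaling to the array median, 3 after loess, 3 with normexp and 5 in the authors' table. Lower probes were 14, and 9 with normexp, where 4.70% and 2.75% of all probes were. Genes higher were 4, but 2 with the array median, with quantile normalization and in the authors' table, and 1 after loess, under normexp and when all probes of a gene were averaged. Genes lower were 5, and 3 when averaged, where 3.45% and 2.76% of all genes were. A limit of 1.5-fold gave 37 probes higher and 24 lower, and 20 genes higher, where 18.9% and 11.3% of all probes and 20.2% of all genes passed it. Over all probes the share higher moved too, from 6.13% to 4.75% with the array median, 4.37% after loess, 1.95% with normexp and 3.32% in the authors' table, and over all genes to 4.88% with quantile normalization and 4.30% when averaged. The hnRNP median relative to all probes, 0.16, was 0.076 with quantile normalization and 0.067 after loess. That of all members together, added after seeing the data, was 0.13, against 0.048 on quantile-normalized values, 0.034 after loess, 0.0805 under normexp and 0.0808 with dim probes kept. The median 5′ minus 3′ difference of members was -0.52, and -0.365 under normexp. The other splicing genes lay 0.21 above all genes, and 0.156 on quantile-normalized values or 0.144 after loess. Of them 4 were lower past 2-fold, against 3.45% of all genes, and 2 were under normexp, against 2.31%. These were added after seeing the data too, as were single genes, of which Hnrpk reversed, to -0.015 under normexp, while Hnrnpa1 moved to 0.15 and Prpf38b to 0.65 there. In all 15 genes changed sign under some scaling, among them Hnrpa3 (-0.11 after loess), Snrpb (-0.15 after loess), Snrpd2 (-0.03 after loess) and Sf3b5 (-0.18 under normexp). The cause of these shifts was not tested. The medians of the SR class (-0.02) and the U2 factors (0.01) changed sign under some alternatives, by less than spot noise allows to tell apart. Counts of 2-fold calls within single classes and values of single genes were recomputed too, and 55 of these moved, 1 reversed and 288 stayed. The other recomputed totals and medians, 81 in all, stayed within 1.5 times for counts or within spot noise for medians. Among them was the share of member genes with probes on one side of 0 (38.6% to 41.9%). The same share over all genes was not recomputed, so the contrast with the array was not followed across settings. No paired analysis was possible because each group has 1 array, and for the same reason no replicate could be left out. Spots under an intensity of 200 carry a technical SD of 0.60, from 52 repeated probes, against 0.17 above 2000.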

Other observations

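Across the 137 member probes measured on both arrays, the difference followed the signal more closely than on the array at large, with a Spearman correlation of 0.42 between mean log2 signal and log2 difference, against 0.05 over 26802 probes. Probes of a gene share its transcript, and all share the same 2 arrays, so this is a description with no test. Base composition did not stand in the same relation: the correlation with the GC content of the probe was -0.08 for members and -0.07 for all probes. Of the 8 fibroblast markers 6 were negative, with Pdgfrb at 3977 on the array labelled MARVELD1 and 18671 on the empty vector array (-2.10) and 2 positive, with Vim at 114179 and 107830 (0.21).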
